A study of Mus musculus with 6 samples.

Results

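Myofibroblasts are the contractile, matrix-producing cells that fibroblasts become in injured and fibrotic lung, and TGFβ is a classic inducer of this state. The genes described here encode 10 proteins of their contractile apparatus: Acta2, Tagln, Tagln2, Cnn1, Cnn2, Myl9, Tpm1, Tpm2, Cald1 and Myh9. They are listed by gene symbol, with no threshold on a measured value, though with earlier results of these data known, and all 10 were found among the 55364 genes listed in the count tables. RNA of primary mouse lung fibroblasts (LFs) was sequenced by Quant-Seq, in which cDNA synthesis starts at the poly(A) tail and each transcript is read near its 3′ end. There were 3 libraries labelled wild type (wt) and 3 labelled TKS5 knock-out (TKS5 KO). Cells of both genotypes were held in serum-free medium with 10 ng/ml TGF-β1 for 24 h, and no library without TGFβ is part of the comparison, so it does not show which of the 10 genes TGFβ induced. LFs came from adult C57Bl6/J mice, 8 to 10 weeks old, and were used after few passages. The study itself writes the second genotype as Tks5+/-, so that an intact copy of the gene remained. The study describes its samples as independent of each other, while the labels do not tie the replicates to separate mice or cultures, and the p-values measure the spread between these libraries.

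Libraries held 1344507 to 2369882 counts, and 15620 to 17424 genes had at least 1 count. Sh3pxd2a, the gene of TKS5, had 205, 190 and 284 counts in the wt libraries and 238, 258 and 260 counts in those labelled TKS5 KO, so the genotypes overlapped (log2 fold change 0.29, SE 0.20, adjusted p = 0.249). With corrections for transcript length, described with Myh9 below, Sh3pxd2a was called higher, at 1.00 for length alone (adjusted p = 5.2e-04) and 1.18 for length and GC content (adjusted p = 1.1e-04). The reads lie at the end of the transcript, downstream of the engineered part of the gene, and whether the altered allele still gives reads there was not tested. The counts therefore do not check the labels, and each direction below is that of the libraries labelled TKS5 KO. Tmsb4x, which encodes the actin monomer-binding protein thymosin β4, took 0.524 to 0.644% of all counts in wt LFs and 2.77 to 3.31% in the libraries labelled TKS5 KO, and the TMM scaling factors were 1.15 to 1.17 and 0.817 to 0.932. Levels are given as counts per 1000000 counts (CPM) after TMM scaling, a method that sets libraries to a common scale by the bulk of their genes. The quasi-likelihood F test of edgeR was run across all 10346 genes kept by its filter on low counts, which all 10 contractile genes passed. Where no other analysis is named, each adjusted p of a gene comes from that edgeR test with Benjamini-Hochberg adjustment, and a gene was called at an adjusted p under 0.05 with a fold change of at least 1.2. Levels are compared between libraries and not between genes, since CPM are not per length.

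In a contractile cell, myosin II heads pull on filaments of actin. Tropomyosin lies along the actin filament, caldesmon, calponin and transgelin bind to it and tune its use, and phosphorylation of the regulatory light chain switches the myosin on. Many of these genes are known targets of serum response factor (SRF), which binds a DNA element called the CArG box together with actin-sensing cofactors. The CArG box, a run of A and T between a pair of C and a pair of G, was searched for in RefSeq promoter windows of the GRCm38.p6 assembly, from 250 bases before to 50 bases after each gene's start. The pattern, though not every sequence that fits it, is the same on both strands. A window was found for 9 of the 10 genes, Tagln being the exception, and Cald1 had 2 windows. Of 32851 windows in all, 1.63% held a CArG box, and 9.98% held a CArG box or a like element with a G or C inside the run. Such an element was found for Cnn2, Myl9 and Acta2, and it is shown here with the bases around it so that its letters can be compared, with the element itself in capitals.

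Cnn2, CArG box from base -56, chr10:79988534-79988563, forward strand: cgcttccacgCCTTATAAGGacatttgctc
Myl9, CArG box from base -161, chr2:156775293-156775322, forward strand: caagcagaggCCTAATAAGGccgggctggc
Myl9, CArG-like element from base -99, chr2:156775355-156775384, forward strand: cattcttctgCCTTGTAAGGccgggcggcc
Acta2, CArG-like element from base -84, chr19:34255438-34255467, reverse strand: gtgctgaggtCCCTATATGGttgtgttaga
Acta2, CArG-like element from base -34, chr19:34255388-34255417, reverse strand: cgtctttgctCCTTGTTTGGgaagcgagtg

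No such letters were found in the windows of Cald1, Cnn1, Myh9, Tagln2, Tpm1 and Tpm2. A match is a description of the sequence and does not show that SRF binds there.

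Among the 10 contractile genes, Tagln, Tagln2 and Cnn1 were called higher in the libraries labelled TKS5 KO, Myh9 was called lower, and Acta2, Cnn2, Myl9, Tpm1, Tpm2 and Cald1 were not called. Of all genes tested, 44.9% were called, 22.8% higher and 22.1% lower, so that 4 called genes of 10 is a share near the background. The genotypes did not overlap in CPM for 4 of the 10 genes, compared with 53.8% of all genes tested. The median log2 fold change of the 10 genes was 0.013, compared with -0.046 over all genes tested. The contractile genes did not move as a block. The 4 called genes encode 3 actin-binding regulators and a myosin heavy chain. As given below, the calls on Tagln2 and Myh9 were lost in some alternative analyses, and the counts of Tagln followed those of Pcsk7. Acta2, the smooth muscle actin, was not called with TMM scaling but was called lower with library totals and with the authors' normalized counts.

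**Figure D1:**
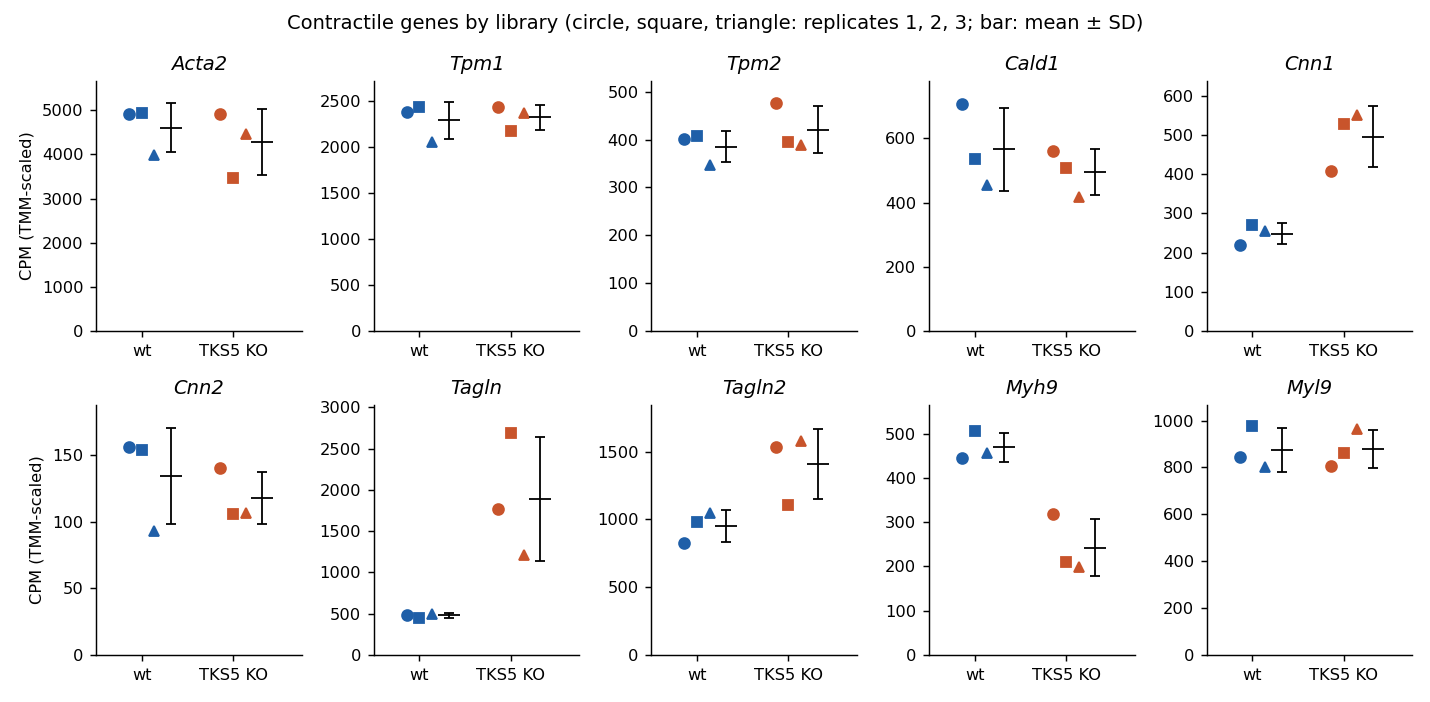
Level of each of the 10 contractile genes in CPM (vertical axes, starting at 0) in the 3 wt libraries (blue) and the 3 libraries labelled TKS5 KO (orange), with circle, square and triangle for replicates 1, 2 and 3 and a bar for the mean ± SD of each genotype. The genotypes are apart for Tagln, Tagln2 and Cnn1, which are higher in the libraries labelled TKS5 KO, and for Myh9, which is lower, and they overlap for the other 6 genes.

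Acta2 (ENSMUSG00000035783; GRCm38 chromosome 19, 34241090 to 34255590, reverse strand) encodes α-smooth muscle actin, the actin isoform by which myofibroblasts are usually identified. It stood at 4922, 4932 and 3977 CPM in wt replicates 1, 2 and 3, and at 4915, 3471 and 4464 CPM in the libraries labelled TKS5 KO. Both genotypes reached the same top level, and the lowest library of each was replicate 3 in wt LFs and replicate 2 in the libraries labelled TKS5 KO. The means were 4610 CPM (SD 548, n = 3) and 4283 CPM (SD 739, n = 3), and the log2 fold change was -0.11 (SE 0.21, 95% interval -0.55 to 0.33, adjusted p = 0.710). Permuting the library labels in an exact two-sided test of the CPM gave p = 0.5, and 3 libraries against 3 cannot go below p = 0.1. This result depended on the scaling between libraries. With library totals alone, under which the median of all genes tested moved to -0.47, Acta2 was called lower at -0.52 (adjusted p = 0.0394), a value close to that median. With the authors' normalized counts and limma it was called lower at -0.94 (adjusted p = 0.00236).

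Tropomyosins are coiled-coil proteins that polymerise along the actin filament and decide which partners can reach it. Tpm1 (ENSMUSG00000032366; chromosome 9, 67022590 to 67049406, reverse strand) had 2385, 2435 and 2061 CPM in wt LFs and 2439, 2174 and 2369 CPM in the libraries labelled TKS5 KO. The ranges overlapped, and the log2 fold change was 0.02 (SE 0.20, 95% interval -0.39 to 0.44, adjusted p = 0.942). Tpm2 (ENSMUSG00000028464; chromosome 4, 43514711 to 43523765, reverse strand) had 400, 407 and 347 CPM in wt LFs and 477, 395 and 389 CPM in the libraries labelled TKS5 KO. Only replicate 1 of the libraries labelled TKS5 KO stood above all wt libraries, and the log2 fold change was 0.13 (SE 0.20, 95% interval -0.28 to 0.54, adjusted p = 0.627). The annotation lists 21 transcripts of Tpm1 and 6 of Tpm2, and counts summed per gene do not separate the smooth muscle from the non-muscle isoforms. With the authors' normalized counts, Tpm1 was called lower at -0.68 (adjusted p = 0.00602).

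Caldesmon, the product of Cald1 (ENSMUSG00000029761; chromosome 6, 34598500 to 34775473, forward strand), binds actin, myosin and calmodulin and restrains the motor. Its levels were 707, 537 and 454 CPM in wt LFs and 560, 507 and 418 CPM in the libraries labelled TKS5 KO. The wt libraries spread widely, with a coefficient of variation of 22.8%, and the genotypes overlapped. The log2 fold change was -0.19 (SE 0.21, 95% interval -0.63 to 0.25, adjusted p = 0.486). As with Acta2, Cald1 was called lower with library totals (-0.61, adjusted p = 0.0228) and with the authors' normalized counts (-0.81, adjusted p = 0.00734).

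Calponins are actin-binding proteins that inhibit the ATPase of myosin. Cnn1, calponin 1 (ENSMUSG00000001349; chromosome 9, 22099216 to 22109630, forward strand), is the form typical of smooth muscle and is widely used as a marker of the contractile state. It had 341, 507 and 686 raw counts in wt LFs and 743, 902 and 1077 raw counts in the libraries labelled TKS5 KO, which came to 219, 271 and 254 CPM and to 408, 528 and 551 CPM. Every library labelled TKS5 KO stood above every wt library. The mean was 1.99-fold higher, at 496 CPM (SD 77.0, n = 3) compared with 248 CPM (SD 26.4, n = 3), and the log2 fold change was 1.00 (SE 0.21, 95% interval 0.57 to 1.42, adjusted p = 4.5e-04). The exact permutation test gave p = 0.1, its smallest value. Cnn1 was called in each of the 21 alternative analyses, with log2 fold changes of 0.57 to 1.17.

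Cnn2, calponin 2 (ENSMUSG00000004665; chromosome 10, 79988584 to 79996062, forward strand), is the more widely expressed form. Its levels were 156, 154 and 92.7 CPM in wt LFs and 140, 106 and 106 CPM in the libraries labelled TKS5 KO. The lowest library of all 6 was wt replicate 3, and the genotypes overlapped. The log2 fold change was -0.18 (SE 0.23, 95% interval -0.65 to 0.29, adjusted p = 0.535), and with library totals Cnn2 was called lower at -0.59 (adjusted p = 0.0423). The log2 ratio of Cnn1 to Cnn2 within a library, on which the scaling between libraries has no bearing, was 0.49, 0.82 and 1.45 in wt LFs, compared with 1.53, 2.31 and 2.36 in the libraries labelled TKS5 KO. It did not overlap between genotypes and was higher by 1.15 on average in the libraries labelled TKS5 KO (exact two-sided permutation p = 0.1, adjusted p = 0.125 over 5 ratios). The ratio did overlap with the authors' normalized counts, where it was higher by 0.96 (exact permutation p = 0.2). It also overlapped with length and GC content corrected, where it was higher by 0.98 (exact permutation p = 0.2).

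Transgelins are small calponin-like proteins that bind actin filaments. Tagln, transgelin or SM22α (ENSMUSG00000032085; chromosome 9, 45929619 to 45936058, reverse strand), is an early marker of smooth muscle and myofibroblasts and showed the largest difference of the 10 genes. It had 745, 845 and 1351 raw counts in wt LFs and 3229, 4604 and 2361 raw counts in the libraries labelled TKS5 KO. In CPM this came to 479, 452 and 501 and to 1772, 2694 and 1208. The wt libraries lay close together, with a coefficient of variation of 5.12%, whereas the libraries labelled TKS5 KO were far apart, with 39.7%, and all of them stood above the wt libraries. The mean rose 3.96-fold, from 478 CPM (SD 24.4, n = 3) to 1891 CPM (SD 750, n = 3), and the log2 fold change was 1.99 (SE 0.25, 95% interval 1.47 to 2.50, adjusted p = 1.7e-06). The exact permutation test gave its smallest p of 0.1. Tagln was called in each of the 21 alternative analyses, with log2 fold changes of 1.36 to 2.27.

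The counts of Tagln could not be told apart from those of a neighbour. The last 108 bases of its final exon (chromosome 9, 45929619 to 45929726) are also the end of Pcsk7, which encodes a proprotein convertase and is transcribed from the opposite strand. Pcsk7 had 680, 795 and 1247 raw counts in wt LFs and 2929, 4125 and 2188 raw counts in the libraries labelled TKS5 KO. These are 91.3, 94.1 and 92.3% of the Tagln counts in wt LFs, compared with 90.7, 89.6 and 92.7% in the libraries labelled TKS5 KO. The count of Pcsk7 thus followed that of Tagln in every library, with a log2 fold change of 1.95 (SE 0.25, adjusted p = 1.7e-06). The study's methods do not state whether the counting kept to 1 strand, so the reads may come from either gene or from both, and the difference given for Tagln is uncertain to that extent. No other contractile gene shared its counted end with an exon of another gene.

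**Figure D2:**
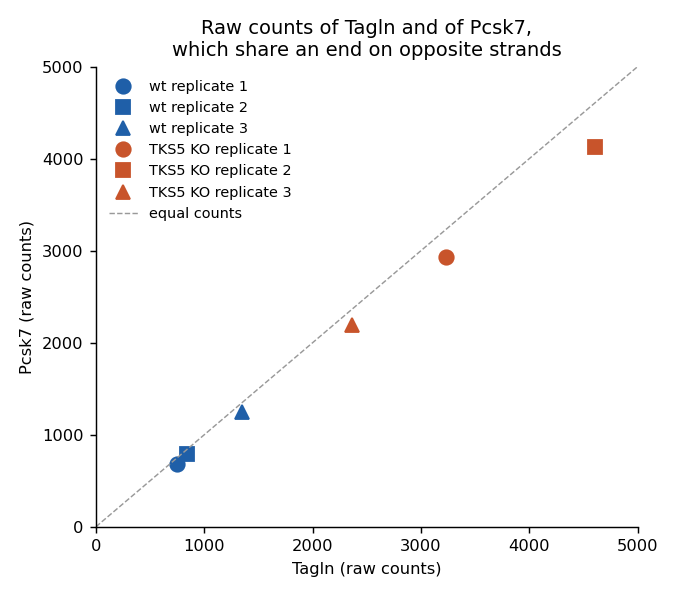
Raw counts of Tagln (horizontal axis) and Pcsk7 (vertical axis) in the 3 wt libraries (blue) and the 3 libraries labelled TKS5 KO (orange), with a dashed line of equal counts. All 6 libraries lie just under the line, with Pcsk7 at 89.6 to 94.1% of Tagln.

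Tagln2, transgelin 2 (ENSMUSG00000026547; chromosome 1, 172500047 to 172507380, forward strand), is the form found in many cell types that are not muscle. Its levels were 823, 981 and 1047 CPM in wt LFs and 1535, 1108 and 1577 CPM in the libraries labelled TKS5 KO. The genotypes did not overlap, but replicate 2 of the libraries labelled TKS5 KO lay close to wt replicate 3. The mean was 1.48-fold higher, with a log2 fold change of 0.57 (SE 0.21, 95% interval 0.13 to 1.00, adjusted p = 0.0325). This call was not stable. It was lost when wt replicate 1 was left out (0.47, adjusted p = 0.132), and likewise without wt replicate 2 (0.59, adjusted p = 0.0935) or replicate 3 of the libraries labelled TKS5 KO (0.51, adjusted p = 0.0993). It was also lost with library totals (0.15, adjusted p = 0.548), the authors' normalized counts (0.03, adjusted p = 0.905) and a correction for transcript length (0.27, adjusted p = 0.308). The log2 ratio of Tagln to Tagln2 was -0.78, -1.12 and -1.06 in wt LFs, compared with 0.21, 1.28 and -0.38 in the libraries labelled TKS5 KO. The ratio did not overlap between genotypes and was higher by 1.35 on average (exact permutation p = 0.1, adjusted p = 0.125 over 5 ratios), with the limit on Tagln just given.

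Of the motor itself, Myl9 (ENSMUSG00000067818; chromosome 2, 156775420 to 156781658, forward strand) encodes the regulatory light chain whose phosphorylation starts contraction. It had 843, 979 and 802 CPM in wt LFs and 806, 863 and 964 CPM in the libraries labelled TKS5 KO. The ranges nearly coincided, and the log2 fold change was 0.01 (SE 0.20, 95% interval -0.41 to 0.42, adjusted p = 0.986). With the authors' normalized counts Myl9 was called lower at -0.54 (adjusted p = 0.0264).

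Myh9 (ENSMUSG00000022443; chromosome 15, 77760587 to 77842175, reverse strand) encodes the heavy chain of non-muscle myosin IIA, the main myosin II of fibroblast stress fibres. It had 690, 947 and 1228 raw counts in wt LFs and 578, 360 and 389 raw counts in the libraries labelled TKS5 KO, which came to 444, 507 and 455 CPM and to 317, 211 and 199 CPM. Every library labelled TKS5 KO stood below every wt library. The mean fell from 469 CPM (SD 33.4, n = 3) to 242 CPM (SD 65.1, n = 3) and was 1.93-fold higher in wt LFs, for a log2 fold change of -0.95 (SE 0.22, 95% interval -1.40 to -0.51, adjusted p = 0.00104). The exact permutation test gave p = 0.1. Myh9 has the longest transcript of the 10 genes (7433 bases), and over 10339 genes tested the log2 fold change fell with transcript length (Spearman's correlation -0.397, where the points are genes and not replicates). With a correction for that trend Myh9 was at -0.44 and no longer called (adjusted p = 0.0865), and when GC content was corrected too it was at -0.24 (adjusted p = 0.336). Relative to Myh10, the heavy chain of non-muscle myosin IIB, whose longest transcript is of like length (7791 bases), the log2 ratio of Myh9 was 3.27, 3.66 and 3.65 in wt LFs, compared with 2.31, 2.53 and 2.31 in the libraries labelled TKS5 KO. It did not overlap between genotypes and fell by 1.15 on average (exact permutation p = 0.1, adjusted p = 0.125 over 5 ratios). Myh10 was chosen after its values were seen, so the ratio is not an independent check on Myh9. Myh10 itself had 35.2 to 45.1 CPM in wt LFs and 35.7 to 63.1 CPM in the libraries labelled TKS5 KO (log2 fold change 0.22, adjusted p = 0.493). With the length correction, under which Myh9 was not called, Myh10 was called higher at 0.76 (adjusted p = 0.0137), and with GC content corrected too at 0.83 (adjusted p = 0.00606).

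**Figure D3:**
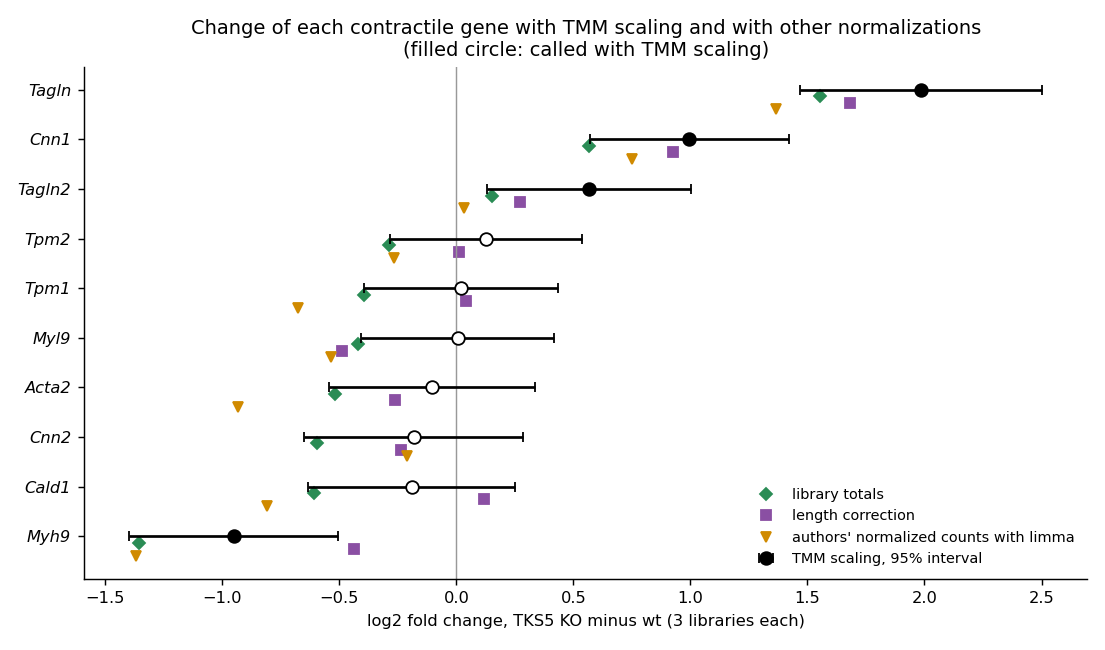
Log2 fold change of each contractile gene between the libraries labelled TKS5 KO and wt LFs (3 libraries each), with TMM scaling and its 95% interval (circles, filled where the gene was called) and with library totals, a length correction and the authors' normalized counts. Tagln, Tagln2 and Cnn1 lie above 0 in each analysis shown, and Myh9, Acta2 and Cnn2 lie below 0 in each. The sign of Myl9, Tpm1, Tpm2 and Cald1 changes with the choice, and the size of the values shifts for all genes.

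The remaining ratios concern genes that were not called. The log2 ratio of Tpm1 to Tpm2 was 2.57, 2.58 and 2.56 in wt LFs, compared with 2.35, 2.46 and 2.60 in the libraries labelled TKS5 KO, a difference of -0.10 (exact permutation p = 0.4, adjusted p = 0.4). The ratio of Acta2 to Actb, the cytoplasmic β-actin, was 0.21, 0.04 and 0.08 in wt LFs, compared with 0.37, 0.35 and 0.49 in the libraries labelled TKS5 KO. This ratio did not overlap and was higher by 0.29 on average (exact permutation p = 0.1, adjusted p = 0.125), but with the authors' normalized counts the difference was -0.042. An exact permutation test of 3 libraries against 3 cannot pass 0.05 for any of the ratios.

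**Figure D4:**
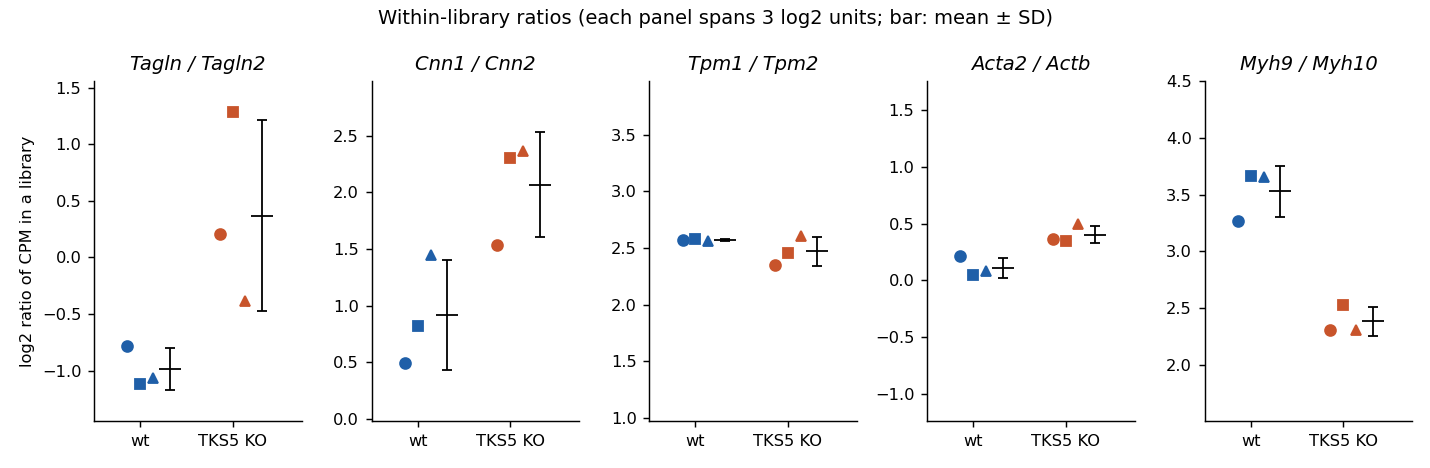
Log2 ratio of the CPM of related genes within each library (vertical axes, each spanning 3 log2 units) for the 3 wt libraries (blue) and the 3 libraries labelled TKS5 KO (orange), with the mean ± SD of each genotype beside the points. The genotypes are apart for Tagln over Tagln2, Cnn1 over Cnn2, Acta2 over Actb and Myh9 over Myh10, and they overlap for Tpm1 over Tpm2.

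Libraries of a genotype did not vary in the same way in every gene. Among wt LFs, replicate 3 was the lowest for Acta2, Tpm1, Tpm2, Cald1, Cnn2 and Myl9 and the highest for Tagln and Tagln2. Among the libraries labelled TKS5 KO, replicate 1 was the highest for Acta2, Tpm1, Tpm2, Cald1, Cnn2 and Myh9, and replicate 2 was the highest for Tagln and the lowest for Acta2, Tpm1 and Tagln2. Summed over the 10 genes, the level was 9991 to 11654 CPM in wt LFs and 12056 to 13368 CPM in the libraries labelled TKS5 KO, and without Tagln it was 9491 to 11202 and 9362 to 11596 CPM. The sums were therefore apart with Tagln and overlapped without it. As a share of raw counts the 10 genes took 1.14 to 1.32% in wt LFs and 0.976 to 1.23% in the libraries labelled TKS5 KO. The genes whose log2 CPM followed Acta2 most closely, among 3251 genes with a mean of at least 50 CPM, were Cyb5r3 (Pearson's r 0.99), Sp1 (0.97), Ndufa10 (0.97), Tollip (0.96) and Eif3l (0.94), over 6 libraries that share their depth and scaling. None of these was called between genotypes, an outcome largely set by choosing them for likeness to Acta2, which was itself not called.

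Partner genes of the contractile apparatus were taken from 5 lists. Of 49 such genes tested, 14 were called lower and 12 were called higher in the libraries labelled TKS5 KO, compared with 22.1% and 22.8% of all genes, and their median log2 fold change was 0.019. With library totals 20 were lower and 7 higher, and with the length correction 12 were lower and 16 higher, so the split of directions rests on the scaling.

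None of the 4 other actin genes tested was called. Actb had 4250, 4784 and 3755 CPM in wt LFs and 3806, 2720 and 3169 CPM in the libraries labelled TKS5 KO, with a log2 fold change of -0.40 (adjusted p = 0.129). It was called lower with library totals (-0.81), the authors' normalized counts (-0.89) and the length correction (-0.58). The same held with length and GC content corrected (-0.66) and for the block with the length correction (-0.59). Actg2, the enteric smooth muscle actin, was at -0.04 (adjusted p = 0.891). Acta1, the skeletal muscle form, was at 0.93 (adjusted p = 0.109), and wt replicate 3, at 123 CPM, stood apart from the other wt libraries at 54.7 and 32.6 CPM. With that library left out Acta1 was called at 1.64 (adjusted p = 1.8e-05). It was also called with no filter on low counts (0.92, adjusted p = 7.2e-04), the replicate block (1.11, adjusted p = 8.0e-04), the GC correction (1.17, adjusted p = 0.0481) and the block with the length correction (0.76, adjusted p = 0.0160). Actg1, the cytoplasmic γ-actin, ran from 61.2 to 246 CPM in wt LFs and from 174 to 439 CPM in the libraries labelled TKS5 KO (0.97, adjusted p = 0.325). When wt replicate 2 was left out Actg1 was called at 1.73 (adjusted p = 0.00325), and as a gene with near-identical copies in the genome its counts are uncertain.

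Of 5 myosin subunit genes tested, 2 were higher and 1 was lower. Myl6, the essential light chain of smooth and non-muscle myosin II, had 883, 671 and 557 CPM in wt LFs and 1922, 2894 and 2038 CPM in the libraries labelled TKS5 KO (log2 fold change 1.70, adjusted p = 4.3e-06). Myl12a, a regulatory light chain closely related to Myl9, had 487, 430 and 483 CPM in wt LFs and 1329, 1566 and 1461 CPM in the libraries labelled TKS5 KO (1.64, adjusted p = 1.4e-06). Both stood clear of the wt range, whereas Myl12b, almost identical to Myl12a in protein, was at 0.29 (adjusted p = 0.355). Myh11, the heavy chain of smooth muscle myosin, was lower, with 29.4 to 34.1 CPM in wt LFs and 7.02 to 20.3 CPM in the libraries labelled TKS5 KO (-1.27, adjusted p = 0.00262). Myh11 was not called when both length and GC content were corrected (-0.73, adjusted p = 0.0570).

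Among 16 tested genes of the thin filament and its cross-linkers, 5 were lower and 4 higher. Csrp2, a LIM protein of smooth muscle, rose by 1.23 (adjusted p = 9.1e-05) while its relative Csrp1 decreased by 0.70 (adjusted p = 0.0124), and the call on Csrp1 was lost without wt replicate 3 (-0.54, adjusted p = 0.0754) or replicate 2 of the libraries labelled TKS5 KO (-0.53, adjusted p = 0.0810). Tpm4, a tropomyosin of non-muscle cells, rose by 0.88 (adjusted p = 0.00255), and with library totals it was at 0.46 and not called. Nor was it called with the authors' normalized counts (0.07, adjusted p = 0.820) or with length and GC content corrected (0.39, adjusted p = 0.153). Synpo2 (-2.05, adjusted p = 1.2e-04) and Smtnl2 (-2.04, adjusted p = 2.0e-04) fell from levels of at most 34.8 CPM. Flna, filamin A, fell by 0.73 (adjusted p = 0.00711), but with the length correction it was at -0.15 (adjusted p = 0.556). Actn1, α-actinin 1, was at -0.13 (adjusted p = 0.645) and was called lower with library totals (-0.54) and the authors' normalized counts (-0.84). Cnn3 and Tpm3, singled out after their values were seen as the remaining relatives of the calponins and tropomyosins, were at 0.72 (adjusted p = 0.00640) and 0.00 (adjusted p = 0.996), and Cnn3 was at 0.30 and not called with library totals. With the authors' normalized counts Tpm3 was called lower at -0.60 (adjusted p = 0.0248).

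The myosin light chain switch was represented by 15 tested genes, of which 5 were lower and 4 higher. Mylk, the kinase that phosphorylates Myl9, had 2287, 1991 and 1305 CPM in wt LFs and 1766, 1589 and 2267 CPM in the libraries labelled TKS5 KO, which overlap (0.01, adjusted p = 0.975). It was called lower with the authors' normalized counts (-0.77) and higher with the length correction (0.58), so no direction is given. Calm2 and Calm3, which encode calmodulin, the calcium sensor of that kinase, rose by 1.62 (adjusted p = 7.5e-06) and 1.09 (adjusted p = 4.3e-04). Ppp1r14b, of a family of inhibitors of myosin phosphatase, had 47.1 to 72.1 CPM in wt LFs and 222 to 306 CPM in the libraries labelled TKS5 KO (2.23, adjusted p = 1.3e-07). Among the genes called lower, and named here after their values were seen, Prkg1, a cGMP-dependent kinase that relaxes smooth muscle, was at -1.69 (adjusted p = 6.3e-04) and was still called with the length correction (adjusted p = 0.00946). Rock1 was at -1.25 (adjusted p = 9.2e-04) and was called in each of the 6 analyses that left out a library. With the length correction Rock1 was still called, at -0.78 (adjusted p = 0.0302). Rnd3 was at -1.49 (adjusted p = 0.0209) from levels of at most 10.9 CPM, and was called in 3 of the 6 analyses that left out a library. Mprip was at -0.60 (adjusted p = 0.0161), but at 0.01 with the length correction (adjusted p = 0.986).

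Of 9 tested genes of SRF and its cofactors, 3 were lower and 2 higher. Srf rose from 7.72, 9.10 and 6.30 CPM in wt LFs to 26.9, 31.6 and 18.4 CPM in the libraries labelled TKS5 KO (log2 fold change 1.74, adjusted p = 1.9e-04). Mrtfa, the actin-sensing cofactor of SRF, singled out after its values were seen, fell by 0.77 (adjusted p = 0.00668), a call that was lost with the length correction (-0.51, adjusted p = 0.0648). Klf4, a repressor of smooth muscle genes, fell by 1.70 (adjusted p = 1.2e-04), and Elk4, a cofactor that competes with the MRTFs for SRF, by 1.06 (adjusted p = 0.00204). Fhl2 rose by 0.75 (adjusted p = 0.00574), with 0.43 (adjusted p = 0.102) after the length correction. The genes with the CArG box or like element shown above, Acta2, Cnn2 and Myl9, were not called with TMM scaling. Each of them was called lower in an alternative given above. Tagln had no window and was not searched, and the windows cover only bases near each gene's start.

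**Figure D5:**
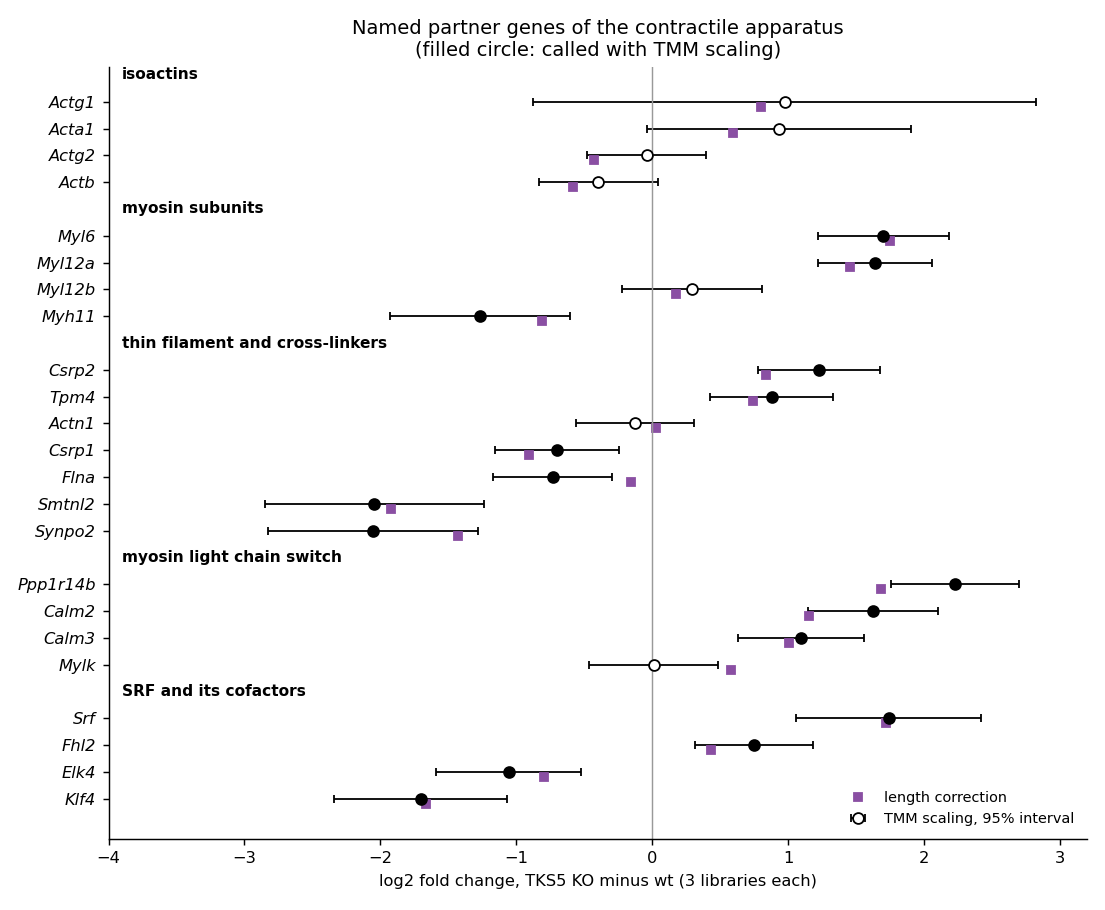
Log2 fold change between the libraries labelled TKS5 KO and wt LFs (horizontal axis, 3 libraries each) of the named partner genes in 5 lists, with TMM scaling and its 95% interval (circles, filled where called) and with the length correction (squares). Called genes lie on both sides of 0 in the myosin, thin filament and SRF lists, and no other actin gene was called. In the light chain switch list the called genes drawn all lie above 0. Genes chosen after their values were seen are not drawn, among them Prkg1, Rock1, Rnd3 and Mprip of that list, which were called lower.

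Smooth muscle cells and pericytes express the same contractile genes, and fewer cells of a type and less RNA per cell cannot be told apart in these bulk libraries. Of 8 tested markers of smooth muscle and pericytes, 5 were lower in the libraries labelled TKS5 KO (Myh11, Des, Cspg4, Pdgfrb and Notch3), Lmod1 was higher by 0.69 (adjusted p = 0.0159), and Actg2 and Mcam were not called. Their summed level was 463 to 549 CPM in wt LFs and 342 to 432 CPM in the libraries labelled TKS5 KO. Cspg4, a defining marker of pericytes, had 22.1 CPM on average in wt LFs and 1.80 CPM in the libraries labelled TKS5 KO (-3.55, adjusted p = 7.8e-07). Macrophage markers summed to 333, 306 and 1806 CPM in wt LFs, with wt replicate 3 apart, and to 118 to 137 CPM in the libraries labelled TKS5 KO. Lyz2, at 76.3 to 106 CPM, made up most of the sum in the libraries labelled TKS5 KO. Of 8 tested macrophage markers 4 were called lower and none higher. Adgre1 had 7, 10 and 34 counts in wt LFs and 0 in every library labelled TKS5 KO. Cybb had 67, 66 and 449 counts in wt LFs, compared with 1, 3 and 1. Mesothelial markers summed to 20.9 to 25.1 and 3.58 to 12.1 CPM, and endothelial markers to 105 to 125 and 45.6 to 59.9 CPM. Of 4 tested endothelial markers Pecam1, Kdr and Egfl7 were called lower, and Ramp2 was not called (0.32, adjusted p = 0.331). Pecam1 had 7, 10 and 21 counts in wt LFs and 0 in every library labelled TKS5 KO. Kdr had 17, 17 and 28 counts in wt LFs, compared with 0, 0 and 2. Egfl7 and Ramp2 made up most of the endothelial sum in the libraries labelled TKS5 KO. Epithelial markers summed to 14.4 to 35.6 and 29.2 to 60.3 CPM, with Sftpc and Scgb1a1 at 0 in every library. In the libraries labelled TKS5 KO that sum was Ager alone, which had 9.63 to 13.0 CPM in wt LFs, whereas Cdh1 had 17, 8 and 58 counts and Epcam 2, 1 and 3 counts in wt LFs and both had 0 in every library labelled TKS5 KO. Fibroblast markers summed to 3740 to 5070 CPM in wt LFs and 5538 to 8605 CPM in the libraries labelled TKS5 KO, with 4 of 8 higher (Vim, Thy1, Col3a1 and Pdgfra) and none lower. Vim and Thy1 were called without any 1 of the libraries and with library totals. Col3a1 (adjusted p = 0.0451) and Pdgfra (adjusted p = 0.0334) overlapped between genotypes and were called in 2 and 3 of 6 analyses that left out a library, and with library totals neither was called, whereas Dcn (-0.74) and Lum (-1.28) were called lower. The part of other cells in the differences of the contractile genes was not tested. Without wt replicate 3, Tagln, Tagln2 and Cnn1 remained called higher and Myh9 lower.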

How the data were processed

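The authors used Trim Galore for trimming, HISAT2 and then Bowtie2 for alignment to GRCm38, and metaseqR2 to count reads over 3′ UTRs, with a sum per gene; these raw counts were deposited. The deposited normalized counts, which the authors made with EDASeq and rounded, were used as a score in 1 alternative only; their 6 columns hold the same sorted values. Strand of counting is not given in the sources used here.

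Symbols, coordinates and longest transcripts came from GENCODE M21 (GRCm38; 55104 of 55364 identifiers matched), promoters from RefSeq. The counts were tested with edgeR 4.0.16 under R 4.3.3 (low counts removed by filterByExpr, TMM, robust quasi-likelihood fit, genotype only), with limma 3.58.1 and DESeq2 1.42.0 as alternatives; ratios used a prior count of 2. Corrections for length and GC content were loess trends (span 0.5) per library. Tables and plots used pandas 2.3.3, numpy 2.4.6, scipy 1.17.1 and matplotlib 3.10.9. The fit was tested on simulated data. These were not built with the trend with transcript length or the larger share of Tmsb4x, so that test does not cover either. Depth was 1344507 to 2369882 counts per library, and standard errors cover the spread between libraries.

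Members and lists were chosen with earlier results of these data known. Named partner genes were, in each list, the 4 with the smallest adjusted p and those with a mean of at least 500 CPM; in addition Sh3pxd2a, the 5 genes most like Acta2, genes overlapping a counted end, and cell type markers were named. Cnn3, Tpm3, Myh10, Mrtfa, Prkg1, Rock1, Rnd3, Mprip, Tmsb4x, Xist, Ddx3y, Eif2s3y, Uty and Kdm5d were chosen after their values were seen. Alternatives were RLE, upper-quartile and library-total scaling, the authors' normalized counts, DESeq2, limma-voom, 2 other filters, 2 other thresholds, the length and GC corrections, the replicate block and leaving out each library. The study's combination of several tests was not run. A result of 1 named partner gene is not reported here.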

Additional observations from a re-analysis of the deposited data

How the results depend on the processing

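Over 21 alternatives, the 10 contractile genes gave 190 values on the same side of the threshold and 13 that lost a call. Another 5 gained a call with the sign kept, and 2 gained a call with the sign changed. Sign changes of values that were never called are not counted. The number of contractile genes called lower was 1, compared with 4 with library totals, 5 with the authors' normalized counts and 0 with the length correction, the length and GC correction and the replicate block with length correction. The calls with a changed sign came with the authors' normalized counts and limma: Myl9 at -0.54, Tpm1 at -0.68 and, among the partners, Mylk at -0.77. With TMM scaling these genes were at 0.01, 0.02 and 0.01 and were not called, so no call was reversed. With those counts the ratio differences were -0.41 for Tpm1 over Tpm2, -0.042 for Acta2 over Actb and -1.46 for Myh9 over Myh10. The GC correction gave -0.33 for Tpm1 over Tpm2 and -0.91 for Myh9 over Myh10, and Tpm1 over Tpm2 was 0.039 with the length correction and -0.26 with length and GC content. The cause was not tested. Leaving out each library in turn, 1 contractile gene was called lower and 2 to 3 higher. Over all genes, 3705 to 5306 were called; with library totals 3944 were lower and 1362 higher, compared with 2286 and 2356. Same-numbered libraries did not deviate together (correlations -0.001, -0.064 and 0.082). The labels do not pair them, and these correlations cannot show whether they shared a litter or a preparation. With the replicate block 4668 genes were called, and the contractile genes stayed at 1 lower and 3 higher. With 3 libraries per genotype, the intervals of the 6 genes that were not called reach down to -0.65 and up to 0.54 on the log2 scale.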
